A study of Mus musculus with 8 samples.

Results

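Carbonic anhydrases and SLC4 bicarbonate transporters were examined in Lewis lung carcinoma (LLC) cells with and without FIH. The 7 genes described are Car2, Car9, Car12, Car13, Slc4a2, Slc4a4 and Slc4a7, taken by symbol from a count table of 53700 genes. All 7 were in the table, and 6 passed the filter on low counts, as did 13933 genes in all. Slc4a4 did not pass and was not tested.

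LLC is a mouse lung carcinoma line, and FIH, encoded by Hif1an, is the asparaginyl hydroxylase that restrains the HIF-α subunits. FIH-KO cells were made from LLC cells with Cas9 and 1 guide to Hif1an, followed by single-cell dilution. WT and FIH-KO cells were cultured for 16 hours without other treatment at 21% O2 (normoxia) or 1% O2 (hypoxia), giving 4 groups of 2 libraries. The labels do not say how many clones the FIH-KO libraries came from, nor whether the 2 libraries of a group were separate cultures, so differences between FIH-KO and WT cells and between clones cannot be told apart, and p values measure the spread between these libraries only. Library totals ran from 14519731 to 18177016 reads on genes, and 3 reads, the limit that a count of 0 allows, amounted to 0.168 to 0.205 CPM, the normalized read count scaled to library size. Hif1an held 584 to 784 reads in each FIH-KO library and 1231 to 1609 in each WT library. Of the epithelial markers, Krt8 and Krt18 were expressed while Epcam was at 0 in every library, and Vim was abundant. The summed level of 4 mesenchymal markers was 4420 to 6030 CPM in WT and 8280 to 11100 CPM in FIH-KO libraries, and that of 5 epithelial markers 225 to 351 and 333 to 537 CPM, and their part in the differences between genotypes was not tested. The summed level of 5 leukocyte markers stayed between 2.7 and 7.24 CPM, with Adgre1 and Cd3e at 0, and 3 of 4 erythroid markers were at 0 in every library. The 4 fibroblast markers summed to between 8.11 and 30.3 CPM and the 4 lung alveolar markers to between 0.845 and 2.19 CPM, with Sftpc at 0.

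Carbonic anhydrases interconvert CO2 and water with bicarbonate and protons. Car9 and Car12 are membrane enzymes whose active site faces the outside of the cell, and Car2 and Car13 are cytosolic. The SLC4 proteins carry the bicarbonate across the plasma membrane, so that enzymes and carriers together set the pH on either side of it. In tumors Car9 is among the best known targets of HIF-1, which binds hypoxia-response elements built around the core letters ACGTG or GCGTG.

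The promoters of the 2 membrane carbonic anhydrases are shown because these 2 of the 7 genes differed most between WT and FIH-KO cells. Each runs from 250 bases before to 50 bases after the start of the gene in RefSeq (GRCm38.p6), on the plus strand. Capitals mark the core of the hypoxia-response element, which reads CACGT or CACGC when it lies on the opposite strand.
Car9, chr4:43506776-43507075: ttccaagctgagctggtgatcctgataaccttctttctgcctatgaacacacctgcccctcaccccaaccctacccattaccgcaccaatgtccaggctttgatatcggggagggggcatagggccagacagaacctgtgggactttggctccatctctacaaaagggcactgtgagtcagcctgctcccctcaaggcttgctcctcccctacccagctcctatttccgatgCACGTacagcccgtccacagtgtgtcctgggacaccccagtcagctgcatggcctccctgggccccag
Car12, chr9:66713436-66713735: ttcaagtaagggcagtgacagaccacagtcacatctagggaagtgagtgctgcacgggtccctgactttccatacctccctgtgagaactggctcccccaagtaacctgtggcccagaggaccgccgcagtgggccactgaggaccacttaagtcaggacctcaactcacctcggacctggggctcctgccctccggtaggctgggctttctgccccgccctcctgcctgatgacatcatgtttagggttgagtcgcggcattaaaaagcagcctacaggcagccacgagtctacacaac
The Car9 window held 1 core, on the opposite strand, 18 to 14 bases before the start. The Car12 window held none of these letters on either strand. It was the only window for Car12, and other annotated starts of the gene were not scanned. Windows were found for 5 of the 7 genes, Car2 and Car13 being the others, and 3 of the 5 held a core in at least 1 window, as did 46.7% of the 27025 genes with a window.

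The genes lay at very different levels. Per kilobase (kb) of exon, Slc4a2 was the highest in every group, with means of 8.36 to 9.9 CPM per kb, above between 67.9% and 71.9% of tested genes. Slc4a7 followed at 3.82 to 5.58 CPM per kb and Car13 at 2.67 to 4.81 CPM per kb. By this length Slc4a7 and Car13 lay within their spread of each other in WT cells in normoxia, at 4.95 ± 0.151 and 4.47 ± 0.606 CPM per kb (SD, n = 2). The same held in FIH-KO cells in hypoxia, at 3.98 ± 0.611 and 3.39 ± 0.315. In FIH-KO cells in normoxia Car13 was the higher of the pair, at 4.81 ± 0.311 against 3.82 ± 0.159 CPM per kb. The group means of the other 3 tested genes stayed under 1 CPM per kb. Car9 reached 0.94 CPM per kb in WT cells in hypoxia, above 21.8% of tested genes, and was above at most 4.69% in the other groups. Car12 and Car2 had at most 0.32 and 0.149 CPM per kb. In FIH-KO cells Car2, Car9 and Car12 all rested on 16 reads or fewer in each library. With the length of the longest transcript in place of all exons, the values of Slc4a2, Slc4a7 and Car12 were about 2-fold larger. Slc4a7 then lay above Car13 in every group, at 8.9 against 4.83 CPM per kb in WT normoxia, 6.87 against 5.19 in FIH-KO normoxia and 7.15 against 3.66 in FIH-KO hypoxia, so the order of these 2 genes depends on the length used.

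**Figure D1:**
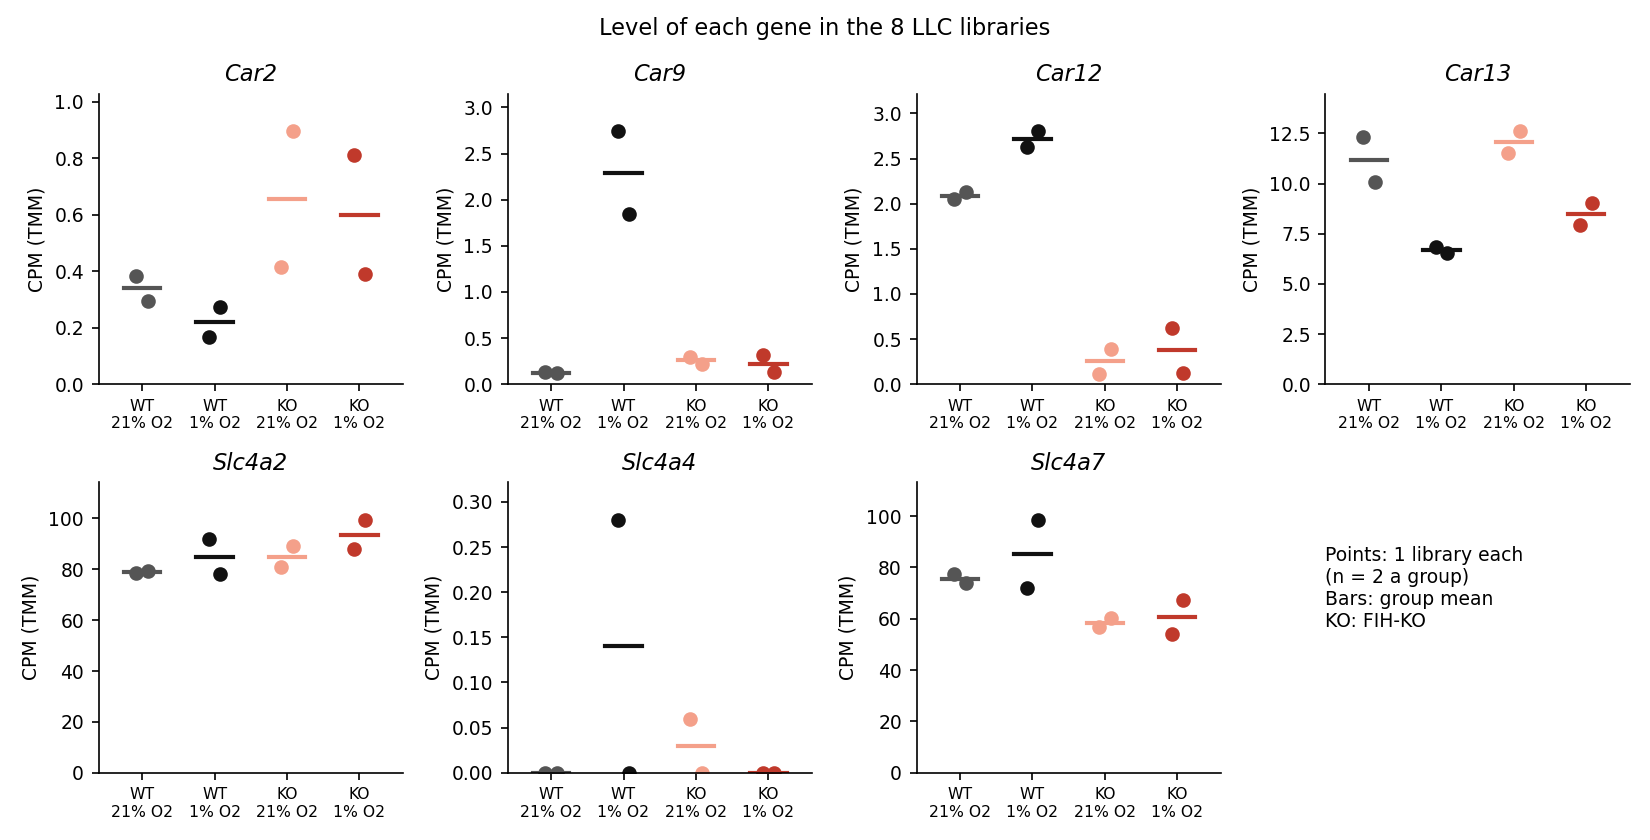
Normalized level (CPM scaled by TMM factors, linear axes starting at 0, a scale for each gene) of the 7 genes in the 8 libraries. Points are libraries and bars are group means (n = 2). Car9 is high in the 2 WT hypoxia libraries alone (2.74 and 1.84 CPM), and Car12 is higher in the 4 WT libraries than in the 4 FIH-KO libraries.

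Car9, the hypoxia-induced membrane enzyme, was raised by hypoxia in WT cells, and no change was called in FIH-KO cells. WT cells in normoxia held 2 and 2 Car9 reads, and WT cells in hypoxia held 49 and 27. FIH-KO cells held 5 and 4 reads in normoxia and 5 and 2 in hypoxia. All FIH-KO libraries lay with the WT normoxia libraries, near the limit of detection, and the WT hypoxia libraries overlapped with none of them. In bulk RNA, fewer cells that express a gene and less of its RNA per cell cannot be told apart.

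Car9 passed the filter on low counts only through the WT hypoxia libraries, where it was high, and would not have been tested otherwise. In WT cells hypoxia raised Car9 by 4.15 on the log2 scale (standard error [SE] 0.58, adjusted p = 0.00032, edgeR quasi-likelihood test). Summed over libraries, 76 reads against 4 gave a ratio of 19 with an exact 95% interval of 7.11 to 71.4, which covers counting error only. In FIH-KO cells the same change was -0.22 (95% interval -1.78 to 1.35, adjusted p = 0.88, edgeR). Under hypoxia Car9 was lower in FIH-KO than in WT cells, with a log2 fold change of -3.33 (SE 0.53, adjusted p = 0.00083, edgeR) and 7 reads against 76, a 10.5-fold lower level (exact interval 4.85 to 27). In normoxia FIH-KO over WT gave 1.03 on the log2 scale (SE 0.80, adjusted p = 0.37, edgeR), on 9 and 4 reads.

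The difference between the 2 hypoxia responses of Car9 was -4.36 on the log2 scale (95% interval -6.50 to -2.22), with an unadjusted p of 0.00078 and an adjusted p of 0.29 (edgeR). In this comparison edgeR called 0 of the 13933 genes (0%), with 925 at an unadjusted p under 0.05. DESeq2 called 37, with 714 at an unadjusted p under 0.05. Car9 was not among the 37 and ranked 115 by p in DESeq2. Without the filter on low counts, edgeR called 143 of 25720 genes, Car9 among them (adjusted p = 0.01). Over all alternatives its adjusted p ran from 0.01 to 1, so the difference did not pass the threshold as tested.

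The Car9 locus (chr4:43506966-43513729, plus strand, GRCm39, ENSMUSG00000028463.15) overlaps the lncRNA gene Gm12454 on the opposite strand. Gm12454 held between 5 and 15 reads in each library and was called in no comparison. The strand setting of the counting is not stated, so reads of the 2 genes cannot be told apart with certainty. Of 3 endothelial markers, Cdh5 and Pecam1, like Car9, were highest in WT hypoxia. Cdh5 held 35 and 18 reads there and 0 to 5 in each other library, and Pecam1 held 5 and 8 reads there and 0 to 3 elsewhere. Kdr held 0 to 3 reads in any library. The log2 fold change of Cdh5 under hypoxia in FIH-KO cells was 2.85 (adjusted p = 0.1, edgeR), where that of Car9 was -0.22. The summed endothelial level was 1.77 to 2.41 CPM in WT hypoxia and 0.178 to 0.437 CPM elsewhere, and its part in the Car9 result was not tested.

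Car12, the second membrane enzyme with an outward active site, was lower in FIH-KO cells whatever the oxygen level. WT cells held 32 and 36 Car12 reads in normoxia and 47 and 41 in hypoxia. FIH-KO cells held 2 and 7 reads in normoxia and 10 and 2 in hypoxia. The highest FIH-KO library lay far under the lowest WT library, and the conditions overlapped within FIH-KO cells. Car12 passed the filter on low counts only through the WT libraries, where it was high.

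In normoxia Car12 fell from 2.09 ± 0.0539 to 0.255 ± 0.193 CPM (SD, n = 2). Its log2 fold change was -2.98 (SE 0.58, adjusted p = 0.0028, edgeR). The summed reads were 8.07-fold lower (exact 95% interval 4.01 to 18.4, counting error only). In hypoxia it fell from 2.71 ± 0.116 to 0.377 ± 0.349 CPM, and its log2 fold change was -2.81 (SE 0.54, adjusted p = 0.0026, edgeR), with summed reads 7.08-fold lower (3.86 to 14.2). The 2 effects of FIH deletion differed by 0.17 (95% interval -1.63 to 1.97, adjusted p = 0.98, edgeR), an interval wide enough to hold a large difference in either direction. The log2 fold change of Car12 under hypoxia was 0.37 in WT cells (95% interval -0.55 to 1.30, adjusted p = 0.54) and 0.55 in FIH-KO cells (-1.10 to 2.19, adjusted p = 0.68, edgeR), and neither passed the threshold.

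The size of the Car12 effect depended on single FIH-KO libraries, although every fit that left out 1 library kept both calls. In normoxia the log2 fold change was -4.08 without FIH-KO normoxia replicate 2 and -2.42 without replicate 1. In hypoxia it was -4.26 without FIH-KO hypoxia replicate 1 and -2.10 without replicate 2. For Car9 in hypoxia the corresponding values were -4.03 and -2.85. Car12 (chr9:66615426-66674186, plus strand, GRCm39, ENSMUSG00000032373.16) overlaps the exons of Aph1b on the opposite strand. Aph1b, a gamma-secretase subunit gene, was higher in FIH-KO than in WT cells in hypoxia, by 0.76 on the log2 scale (adjusted p = 0.021, edgeR), the opposite direction to Car12. Its value in normoxia was 0.50 (adjusted p = 0.087, edgeR).

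**Figure D2:**
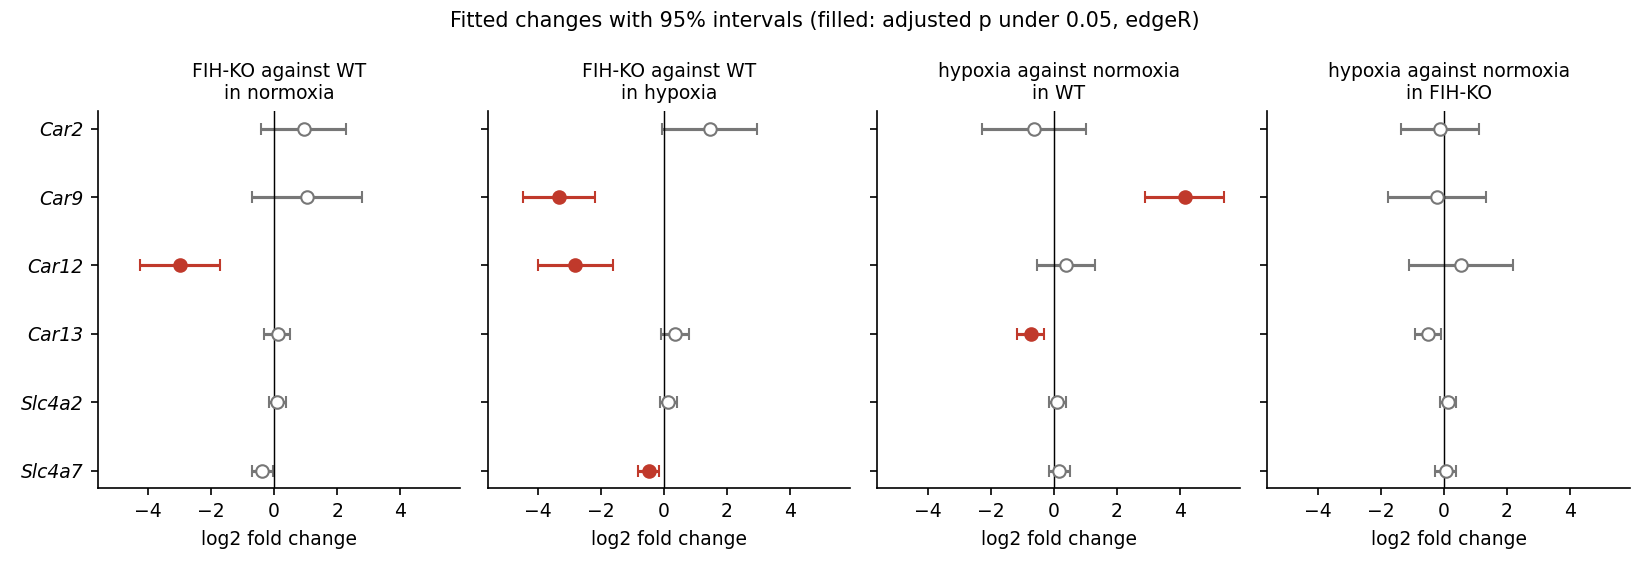
Fitted log2 fold changes (points) with 95% intervals (lines) of the 6 tested genes in the 4 comparisons of 2 groups. Filled red points have an adjusted p under 0.05. Car12 lies at -2.98 and -2.81 in the 2 genotype comparisons, and Car9 lies at 4.15 in WT hypoxia and -0.22 in FIH-KO hypoxia.

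The cytosolic enzyme Car13 was lowered by hypoxia in WT cells. It stood at 12.3 and 10.1 CPM in WT normoxia and 6.83 and 6.55 CPM in WT hypoxia. In FIH-KO cells it stood at 11.5 and 12.6 CPM in normoxia and 7.92 and 9.04 CPM in hypoxia. Within each genotype the hypoxia libraries were all lower than the normoxia libraries, and WT and FIH-KO libraries overlapped in normoxia and not in hypoxia.

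The log2 fold change of Car13 under hypoxia was -0.74 in WT cells (SE 0.20, adjusted p = 0.014, edgeR) and -0.50 in FIH-KO cells (SE 0.19, adjusted p = 0.098, edgeR). The WT call was lost without WT normoxia replicate 1 (-0.64, adjusted p = 0.1, edgeR) and without WT hypoxia replicate 2 (-0.71, adjusted p = 0.066, edgeR). The 2 responses differed by 0.23 (95% interval -0.37 to 0.84, adjusted p = 0.9, edgeR). The log2 fold change of FIH-KO over WT was 0.11 in normoxia (95% interval -0.31 to 0.52) and 0.34 in hypoxia (-0.10 to 0.78), without passing the threshold. Car13 (chr3:14706783-14728077, ENSMUSG00000027555.9) and Car2 (chr3:14951317-14967568, ENSMUSG00000027562.13) both lie on chromosome 3, with Car1 and Car3 between them. On that chromosome the median log2 fold change of FIH-KO over WT over 683 tested genes was -0.36 in normoxia and -0.41 in hypoxia. On chromosomes 4, 5, 9 and 14, which carry the other genes, these medians lay between -0.17 and -0.01.

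Car2, a fast and widespread cytosolic isoform, was barely detected. WT cells held 6 and 5 Car2 reads in normoxia and 3 and 4 in hypoxia, and FIH-KO cells held 7 and 16 in normoxia and 13 and 6 in hypoxia. Every FIH-KO library held more reads than any WT library of the same oxygen level. The log2 fold change was 0.95 in normoxia (95% interval -0.40 to 2.29, adjusted p = 0.28) and 1.45 in hypoxia (-0.06 to 2.96, adjusted p = 0.14, edgeR), so a difference was not established at this depth.

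Slc4a7, the electroneutral sodium-bicarbonate cotransporter that brings bicarbonate into the cell (chr14:7669819-7767484, minus strand, GRCm39, ENSMUSG00000021733.12), was modestly lower in FIH-KO cells in hypoxia, a call that depended on single libraries. Its level was 77.3 and 74 CPM in WT normoxia and 56.7 and 60.1 CPM in FIH-KO normoxia. In hypoxia it was 71.8 and 98.5 CPM in WT cells and 54.2 and 67.4 CPM in FIH-KO cells. FIH-KO and WT libraries did not overlap at either oxygen level, and the 2 WT hypoxia libraries lay farthest apart within a group.

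The log2 fold change of Slc4a7 in FIH-KO over WT cells was -0.48 in hypoxia (SE 0.15, adjusted p = 0.034, edgeR). The value in normoxia was -0.37 (SE 0.15, adjusted p = 0.091, edgeR). The hypoxia call was lost without WT hypoxia replicate 2 (-0.24, adjusted p = 0.34) or FIH-KO hypoxia replicate 1 (-0.29, adjusted p = 0.23), and also without either WT normoxia (-0.45, adjusted p = 0.078) or either FIH-KO normoxia library (-0.45, adjusted p = 0.06, edgeR). It was lost as well when only the 4 hypoxia libraries were fitted (-0.46, adjusted p = 0.1). In normoxia, by contrast, the 4 normoxia libraries alone gave a call (-0.37, adjusted p = 0.02, edgeR), as did the fits without WT hypoxia replicate 1 (-0.40, adjusted p = 0.048) or FIH-KO hypoxia replicate 1 (-0.40, adjusted p = 0.043). The 2 effects differed by -0.11 (95% interval -0.59 to 0.36), and the log2 fold change under hypoxia was 0.17 in WT and 0.06 in FIH-KO cells (adjusted p = 0.43 and 0.85, edgeR).

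Slc4a2, the chloride-bicarbonate exchanger that exports bicarbonate (chr5:24628835-24645948, plus strand, GRCm39, ENSMUSG00000028962.15), was called in no comparison. Its levels were 78.6 and 79.4 CPM in WT normoxia, 91.9 and 78.1 in WT hypoxia, 80.7 and 89.3 in FIH-KO normoxia and 87.9 and 99.4 in FIH-KO hypoxia. The 4 log2 fold changes lay between 0.10 and 0.14, with intervals that together spanned -0.16 to 0.40, and the lowest adjusted p was 0.43 (edgeR). Fastk, whose exons overlap those of Slc4a2 on the opposite strand, was not called either. Slc4a4, the electrogenic sodium-bicarbonate cotransporter of kidney and pancreas (chr5:89034345-89387514, plus strand, ENSMUSG00000060961.17), was at 0 in 6 libraries, with 5 reads in WT hypoxia replicate 1 and 1 read in FIH-KO normoxia replicate 1.

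Set against all tested genes, FIH deletion called 1 of the 6 genes lower in normoxia (Car12) and 0 higher, where 13.0% and 15.2% of all tested genes were called (28.2% in all). In hypoxia it called 3 of 6 lower (Car9, Car12 and Slc4a7) and 0 higher, against 13.9% and 14.1% (28.0% in all). Hypoxia called 1 of 6 higher (Car9) and 1 lower (Car13) in WT cells, against 16.9% and 15.5% (32.4% in all), and 0 of 6 in FIH-KO cells, against 16.8% in all. At an unadjusted p under 0.05, Car13 alone of the 6 passed in FIH-KO cells, and DESeq2 called 0 of the 4 to which it gave an adjusted p. Medians over the 6 genes were 0.11, -0.17, 0.14 and -0.03 in these comparisons, beside 0, -0.03, 0 and -0.03 over all tested genes. The comparisons share libraries and are not independent of each other.

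FIH-KO cells, in which no Car9 response was called, did respond to hypoxia in other genes. All 10 hypoxia reference genes listed were called higher in hypoxia in both genotypes. Over all tested genes, hypoxia called 32.4% in either direction in WT cells and 16.8% in FIH-KO cells, a smaller share. The share called higher was 16.9% in WT cells, and that of FIH-KO cells is not given here. The median log2 fold change of the 10 genes was 2.36 in WT and 2.53 in FIH-KO cells. Ankrd37 rose by 3.53 and 4.13, Bnip3, a mitophagy receptor, by 3.04 and 3.66, and Vegfa, the angiogenic growth factor, by 3.08 and 1.97. With FIH deletion, 4 of these 10 genes were called higher and 0 lower in hypoxia, where 14.1% and 13.9% of all tested genes were called. In normoxia 2 were called higher (Vegfa, 1.20, and Ndrg1, 0.70) and 1 lower (Ldha, -0.56), against 15.2% and 13.0%.

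**Figure D3:**
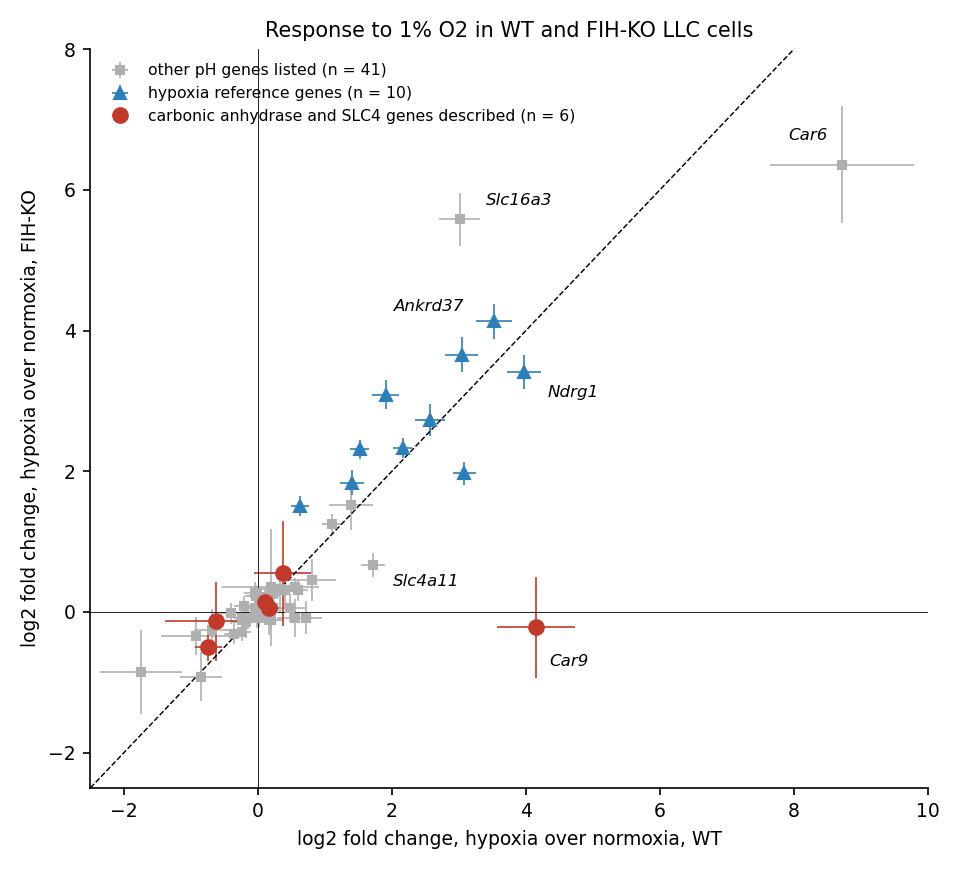
Log2 fold change of hypoxia over normoxia in WT cells (horizontal) and FIH-KO cells (vertical), with standard errors as lines, for the 6 tested genes (red circles), 41 other pH genes (gray squares) and 10 hypoxia reference genes (blue triangles). The dashed line marks equal responses. Car9 lies at 4.15 and -0.22, off the line, while Car6 lies at 8.72 and 6.36.

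The carbonic anhydrase family outside these genes was mostly silent. Of 12 further family members listed, 3 were tested. FIH deletion called 1 of the 3 at each oxygen level (Car5b), where 28.2% and 28.0% of all tested genes were called. Hypoxia called 1 of the 3 in each genotype (Car6), where 32.4% of all tested genes were called in WT and 16.8% in FIH-KO cells. Car6, a secreted carbonic anhydrase known from saliva, held 0 and 1 reads in WT normoxia and 281 and 245 in WT hypoxia. In FIH-KO cells it held 5 and 1 reads in normoxia and 394 and 79 in hypoxia. The log2 fold change under hypoxia was 8.72 in WT (SE 1.07, adjusted p = 0.00013, edgeR) and 6.36 in FIH-KO cells (SE 0.83, adjusted p = 0.00044, edgeR). By summed reads the ratio was 525 (exact interval 93.8 to 20800) in WT and 87.1 (39.7 to 238) in FIH-KO cells. These intervals cover counting error only and not the spread between libraries. Car6 was thus called in both genotypes, with the 2 FIH-KO hypoxia libraries far apart. It passed the filter on low counts only through the hypoxia libraries, where it was high.

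Car5b, a mitochondrial isoform, was higher in FIH-KO cells at both oxygen levels. It held 12 and 11 reads in WT normoxia, 8 and 4 in WT hypoxia, 146 and 121 in FIH-KO normoxia and 82 and 109 in FIH-KO hypoxia. Its log2 fold change of FIH-KO over WT was 3.43 in normoxia (SE 0.34, adjusted p = 3.7e-05, edgeR) and 4.02 in hypoxia (SE 0.39, adjusted p = 3e-05, edgeR). Every FIH-KO library lay above every WT library, the opposite order to that of Car12.

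The make-up of the family's transcripts differed between the groups, taken as shares of the summed CPM per kb over 16 carbonic anhydrase genes. In normoxia Car13 made up 85.5% of the sum in WT and 72.5% in FIH-KO cells. In hypoxia Car6 made up 66.4% in WT and 54.6 ± 26.9% in FIH-KO cells (SD, n = 2), with Car13 at 19.9% and 31.4 ± 20%. Car9 made up 6.99 ± 1.98% in WT hypoxia and 0.684 ± 0.0176% in FIH-KO hypoxia. The latter rests on 5 and 2 Car9 reads over sums of 18.4 and 7.94 CPM per kb, so its small SD does not measure its precision. Car12 fell from 4.77% in WT to 0.451% in FIH-KO normoxia, while Car5b stood at 2.13% and 18.3%. With the length of the longest transcript these shares were 8.62% and 0.775% for Car12 and 3.33% and 26.9% for Car5b. Shares compare transcript levels and not enzyme activity.

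**Figure D4:**
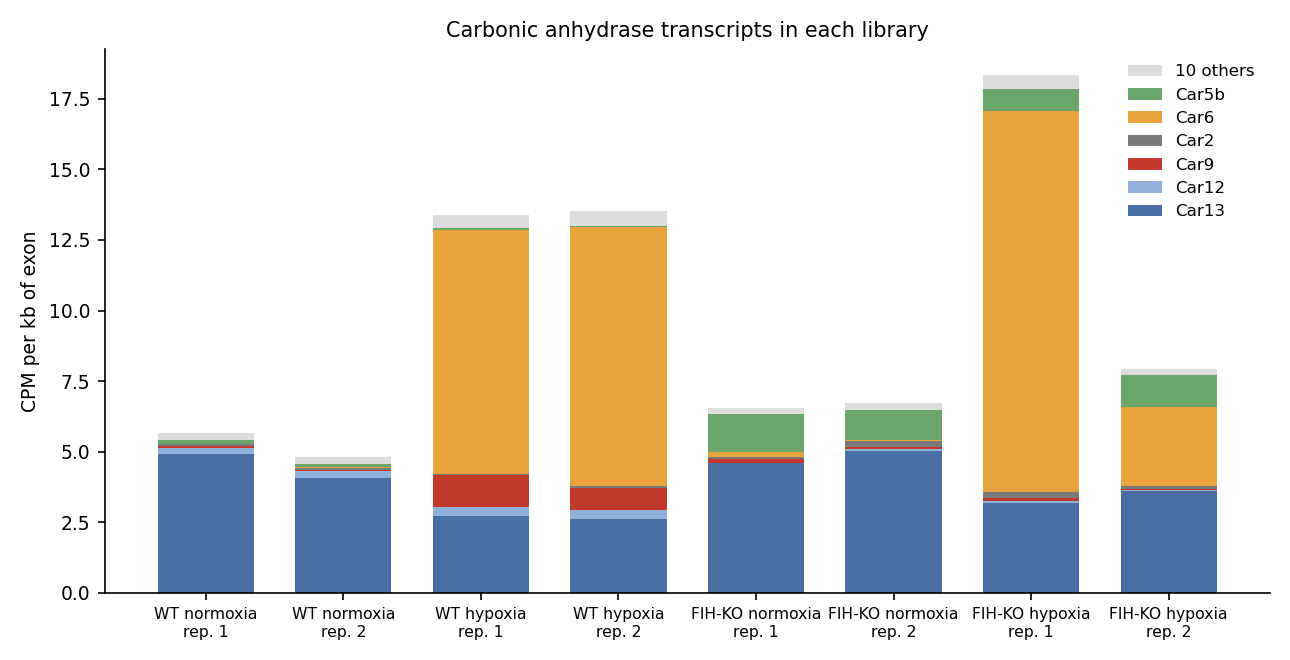
Summed level of 16 carbonic anhydrase genes (CPM per kb of exon, linear axis from 0) in each of the 8 libraries, split by gene, with 10 genes pooled as others. Car13 makes up most of each normoxia bar (72.5% to 85.5% on average), and Car6 appears in the 4 hypoxia bars, unevenly in the 2 FIH-KO libraries.

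Of the other pH-regulating genes listed, 41 of 77 were tested (the further carbonic anhydrases included). FIH deletion called 14 of the 41 in normoxia and 14 in hypoxia, where 28.2% and 28.0% of all tested genes were called. Hypoxia called 9 of the 41 in WT and 5 in FIH-KO cells, where 32.4% and 16.8% of all tested genes were called. Among the other SLC4 transporters, 3 of 7 were tested, and only Slc4a11 was called in these comparisons. Slc4a11 rose by 1.72 under hypoxia in WT cells (adjusted p = 4.6e-05) and by 0.67 in FIH-KO cells (adjusted p = 0.02, edgeR). In normoxia it was higher by 0.95 in FIH-KO than in WT cells (adjusted p = 0.0026, edgeR). Its 2 WT normoxia libraries stood at 6.74 and 7.22 CPM, its FIH-KO normoxia libraries at 12 and 15 CPM and its hypoxia libraries between 19.6 and 23.3 CPM.

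The lactate and proton exporter Slc16a3 (MCT4) rose under hypoxia in both genotypes. It held 194 and 125 reads in WT normoxia and 38 and 25 in FIH-KO normoxia. In hypoxia it held 1701 and 937 reads in WT and 1798 and 964 in FIH-KO cells. FIH-KO libraries were lower than WT libraries in normoxia, with a log2 fold change of -2.44 (SE 0.41, adjusted p = 0.0011, edgeR) and overlapped with them in hypoxia, with a log2 fold change of 0.13. The difference of the 2 effects, 2.57, was not called. Emb, a chaperone of monocarboxylate carriers, was lower in FIH-KO cells, with log2 fold changes of -2 in normoxia and -1.96 in hypoxia (adjusted p = 8.2e-05 and 0.00011, edgeR). Bsg, the chaperone of Slc16a3, rose under hypoxia by 1.10 in WT and 1.25 in FIH-KO cells. In all, 4 of 6 carriers and chaperones were tested. FIH deletion called 2 lower and 0 higher in normoxia and 1 lower and 0 higher in hypoxia. Of all tested genes, 13.0% were called lower and 15.2% higher in normoxia, and 13.9% and 14.1% in hypoxia.

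Of 9 sodium-proton exchangers, 6 were tested. FIH deletion called 1 higher and 2 lower in normoxia and 2 higher and 2 lower in hypoxia. Of all tested genes, 15.2% were called higher and 13.0% lower in normoxia, and 14.1% and 13.9% in hypoxia. Slc9a2 and Slc9a5, both plasma membrane exchangers, were lower, with log2 fold changes of -1.26 and -0.59 in normoxia and -1.14 and -0.88 in hypoxia. Slc9a9, an endosomal exchanger, was higher by 1.10 and 0.69. Slc9a2 also rose under hypoxia, by 1.39 in WT and 1.52 in FIH-KO cells, although its 2 FIH-KO hypoxia libraries lay at 47.5 and 17.7 CPM. Slc9a5 was higher by 0.60 in WT hypoxia.

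The vacuolar proton pump (V-ATPase), which acidifies endosomes and lysosomes, had 20 of 25 listed genes tested. FIH deletion called 6 higher and 0 lower in normoxia and 7 higher and 0 lower in hypoxia, with medians of 0.23 and 0.26 beside 0 and -0.03 over all tested genes. Of all tested genes, 15.2% and 14.1% were called higher and 13.0% and 13.9% lower in these comparisons. Atp6ap1, an accessory subunit, was higher by 0.63 and 0.68 (adjusted p = 0.00093 and 0.00064, edgeR). The other leading subunits were Atp6v1d (0.51) and Atp6v0b (0.48) in normoxia and Atp6ap2 (0.67) and Atp6v1d (0.54) in hypoxia. Hypoxia called 1 higher (Atp6v0b, 0.55) and 1 lower (Atp6v0a4, -1.75) in WT cells and 0 of 20 in FIH-KO cells. Over all tested genes, hypoxia called 16.9% higher and 15.5% lower in WT cells and 16.8% in all in FIH-KO cells.

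Of 10 SLC26 anion exchangers, 4 were tested, and 1 was called higher with FIH deletion at each oxygen level. These were Slc26a10, by 1.11 in normoxia, and Slc26a2, by 0.46 in hypoxia. Of all tested genes, 15.2% were called higher in normoxia and 14.1% in hypoxia. Slc26a11 was higher by 0.72 in WT hypoxia. Of 8 acid-sensing receptors and channels, 1 was tested and 0 were called.

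**Figure D5:**
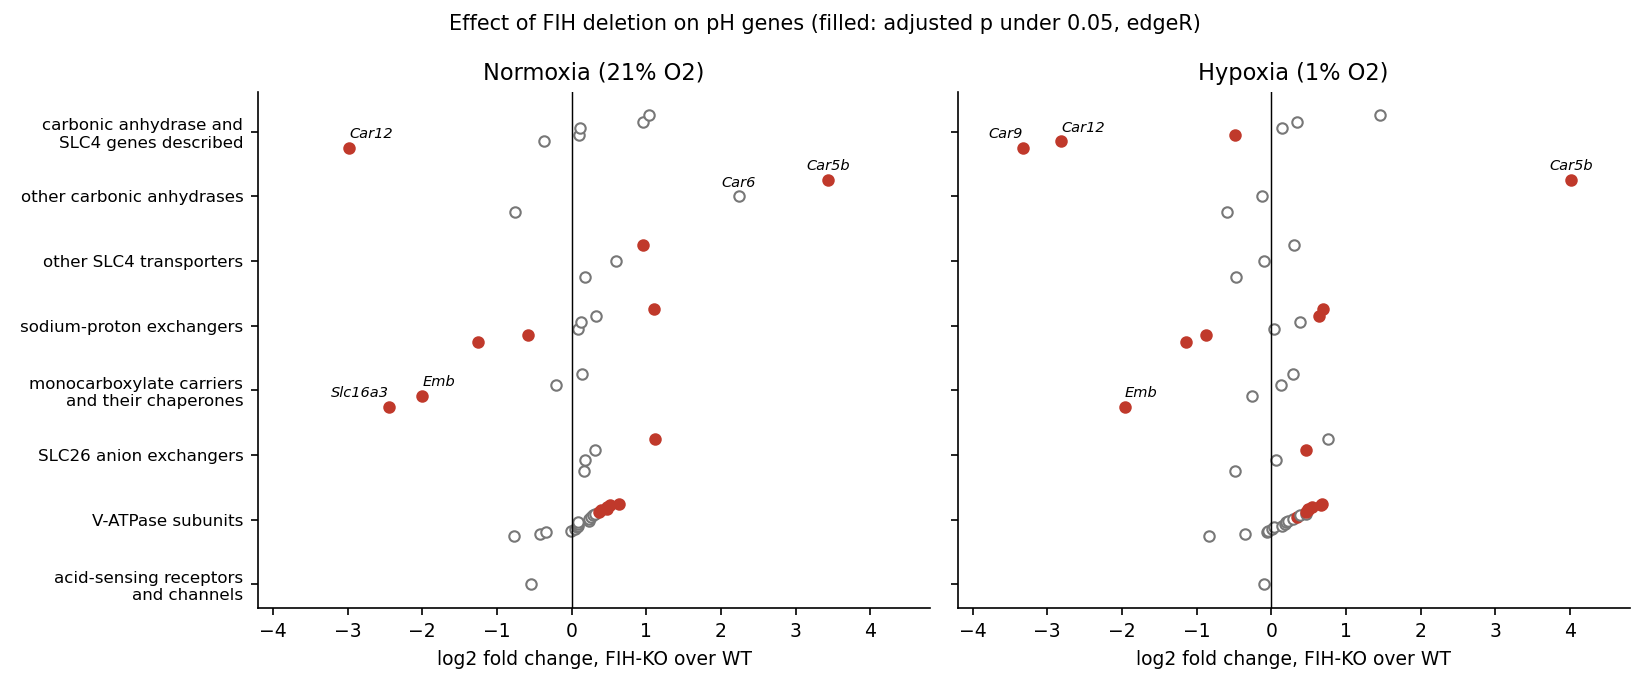
Log2 fold change of FIH-KO over WT in normoxia (left) and hypoxia (right) for each tested gene (1 point each) of the 8 groups of pH genes. Filled red points have an adjusted p under 0.05. Car12 and Emb lie to the left in both panels, Car5b to the right at 3.43 and 4.02, and the called V-ATPase points all lie right of 0.

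The genes most like each of the 6 in level over the 8 libraries were ranked by Pearson's r of log2 CPM among 10576 genes or, for members of that set, the 10575 others. For Car9 they were Ppp1r12c (r = 0.96), Iah1 (0.95) and Tent2 (0.948). For Car12 they were Pfas (0.991), Farsb (0.987) and Timm23 (0.986), and for Car13 Psmc3 (0.985), Hdac10 (0.982) and Ppp2r5d (0.981). For Slc4a7 they were Alms1 (0.981), Phc3 (0.979) and Ddx19b (0.973), for Slc4a2 Cyb561d2 (0.969), Tmem168 (0.965) and Dbnl (0.942), and for Car2 Eef2kmt (0.93), Nsfl1c (0.912) and Psmd8 (0.909). These are descriptions over 8 libraries of 4 groups, which share the group structure.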

How the data were processed

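RNA-Seq libraries were made by the authors from mRNA with a stranded kit, sequenced paired-end, aligned with STAR and counted per gene with HTSeq. Per the labels, the processing notes name GRCm38 and GRCm39. The annotation release and strand setting are not given in the sources used here. The deposited values are raw counts, without normalization. GENCODE for GRCm39, which held 52610 of the 53700 identifiers, gave the gene positions, and promoters were taken from RefSeq (GRCm38.p6).

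Counts were analyzed in R 4.3.3 with edgeR 4.0.16. Low counts were filtered with filterByExpr, using the groups, TMM factors ran from 0.983 to 1.02, and a quasi-likelihood model of 4 group means was fitted to all 8 libraries, with Benjamini-Hochberg adjustment over the 13933 tested genes, with a threshold of 0.05. The common biological coefficient of variation was 11.7%. CPM values were computed from the counts with the TMM factors, and divided by exon length to compare genes. Ratios of summed reads have exact 95% intervals, which cover counting error and not the spread between libraries. Alternatives were RLE and upper-quartile normalization, DESeq2 1.42.0, other count filters, the 4 libraries of a comparison alone, the replicate number as a block, and each library left out.

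The 7 genes and the gene lists were chosen with earlier results of these data known. Named genes were the 7, any gene of the lists called in a comparison (the 3 largest per comparison in lists with more than 6), and the 3 genes most like each of the 6 tested among tested genes averaging 50 counts or more. Cdh5, Pecam1, Kdr, Aph1b, Fastk and Gm12454 were named after their values were seen. The value of 1 called gene of the lists is not reported here.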

Additional observations from a re-analysis of the deposited data

How the results depend on the processing

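Of the 7 genes, the number called with FIH deletion in normoxia was 1, and became 0 with at least 10 counts in every library, 2 with only the 4 normoxia libraries, and 1 to 2 with a library left out. In hypoxia it was 3, and became 1 with at least 10 counts and 2 to 3 with a library left out. For hypoxia in WT cells it was 2, and became 1 with at least 10 counts and 1 to 2 with a library left out. For the difference between the oxygen conditions it was 0, and became 1 (Car9) without the filter. The filter of 10 counts leaves 3 of the 7 genes to test, without Car2, Car9 and Car12. The calls of Car9 and Car12 held with each library left out, with adjusted p values (edgeR) of 0.0018 to 0.016 for Car9 and 0.0015 to 0.019 for Car12 under FIH deletion in hypoxia, of 0.00021 to 0.01 for Car9 under hypoxia in WT cells, and of 0.00066 to 0.036 for Car12 in normoxia. Of the 41 other pH genes, FIH deletion called 14 in normoxia (6 to 17 with a library left out, 7 without either WT normoxia library and 6 without FIH-KO normoxia replicate 1) and 14 in hypoxia (5 to 16, with 5 without WT hypoxia replicate 1 and 9 without replicate 2). Hypoxia called 9 in WT cells (14 with the 4 WT libraries alone, 5 to 14 with a library left out, 5 without either WT normoxia library and 14 without FIH-KO hypoxia replicate 1) and 5 in FIH-KO cells (3 to 8, with 3 without FIH-KO normoxia replicate 1 or FIH-KO hypoxia replicate 1 and 8 without FIH-KO hypoxia replicate 2). The cause was not tested. Where a library was left out, its partner was assumed to vary like the other groups.

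Log2 fold changes that were not called changed sign when a library was left out. With FIH deletion in normoxia Car13 ran from -0.05 to 0.22. Under hypoxia in WT cells Slc4a2 ran from -0.05 to 0.21 and Slc4a7 from -0.08 to 0.34. Under hypoxia in FIH-KO cells Car9 ran from -0.93 to 0.25, Car12 from -0.93 to 1.64, Car2 from -0.72 to 0.55 and Slc4a7 from -0.11 to 0.23. For the difference between the oxygen conditions Slc4a2 ran from -0.07 to 0.21, Slc4a7 from -0.27 to 0.14, Car12 from -1.26 to 1.31 and Car2 from -0.05 to 1.22. With the replicate number as a block, the same counts of the 7 genes were called (1, 3, 2, 0 and 0), and the difference between the oxygen conditions for Car9 had an adjusted p of 0.17 (edgeR). Deviations of libraries with the same number correlated by -0.0104 to 0.193 over genes, so the numbers were not taken to pair the libraries. DESeq2 gave no adjusted p for Car2 under FIH deletion in hypoxia, nor for Car2 and Car9 under hypoxia in FIH-KO cells. Car2, Car9 and Car12 rest on few reads, which limits the precision of their fold changes. Each passed the filter on low counts only through libraries of the group or genotype where it was high.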
